A study of Mus musculus with 50 samples.

Results

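Th1-like and cytotoxic genes in regulatory T cells (Treg cells) were followed as 10 named genes: Tbx21, Eomes, Il12rb2, Cxcr3, Ccl5, Ifng, Gzmb, Gzma, Prf1 and Nkg7. They were chosen by name, with earlier results of these data known. All 10 of 10 were found among the 55011 gene symbols of the count table. The series holds 50 RNA-seq libraries in 16 groups, each made from 500 to 1000 double-sorted mouse cells, with 2521078 to 6981037 counts per library. Of these, 32 libraries are Treg cells sorted by CD4 and the Foxp3-GFP reporter at week 20 from male B6.129(Cg) mice with the allele Foxp3tm3(HBEGF/GFP)Ayr, by which Foxp3-expressing cells carry the diphtheria toxin receptor and GFP. They come from spleen, lung, liver and ear skin, with 3 DT-labelled and 3 PBS-labelled libraries each, and from visceral fat (VAT, the adipose tissue lining the abdominal organs), with 4 and 4. The other 18 libraries are CD4+ CD8- thymic Treg progenitors of male B6.Cg-Foxp3tm1Kuch/J mice, which carry a Foxp3-GFP reporter, taken 5, 12 and 49 days after birth (D5, D12, D49). Their P2 population was sorted as CD25- Foxp3+ and P1 as CD25+ Foxp3-, with 3 libraries per age and population.

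In the series text, diphtheria toxin (DT) was given on 3 days at 12 weeks of age to male littermates with and without the receptor, and tissues were taken 8 to 9 weeks later. The sample titles name the other arm PBS, while both arms carry the genotype label WT. Whether the DT-labelled mice had lost their Treg cells cannot be told from the labels, so the arms are called DT-labelled and PBS-labelled. Nothing in the labels says that replicates were different mice, and each p-value therefore reflects library-to-library spread that could be technical.

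Type 1 immunity is the arm of the immune response directed at intracellular microbes. Its transcription factor T-bet, encoded by Tbx21, drives interferon gamma and the homing receptor CXCR3 in T helper 1 cells, and some Treg cells use part of the same programme. Cytotoxic lymphocytes kill through granules that deliver perforin, a pore-forming protein, and granzymes, proteases that enter the target cell, and Treg cells can also hold granzyme B.

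The sorted populations carried Foxp3 and Il2ra as their sort predicts. Foxp3 stood at 142 to 497 CPM (a gene's counts scaled to the size of its library, with TMM normalisation) in the 32 peripheral libraries, at 258 to 798 CPM in the 9 P2 libraries and at 4.45 to 17.6 CPM in the 9 P1 libraries. Il2ra, which encodes CD25, stood at 10.3 to 42.5 CPM in P2 and at 93.9 to 153 CPM in P1 libraries. Cd4 was less even, at 237 to 933 CPM over the thymus libraries and 237 to 819 CPM within D49 P2. The sum of 6 Treg and CD4 T cell markers was 2740, 2210 and 1640 CPM in D49 P2 replicates 1, 2 and 3. Some libraries stood apart in the summed level of 8 macrophage and monocyte markers. These were D49 P2 replicates 2 and 3 with 87.3 and 117 CPM, VAT DT-labelled replicate 7 with 118 CPM and lung PBS-labelled replicate 1 with 67.9 CPM, against a median of 11.9 CPM over the thymus libraries and 11.3 CPM over the peripheral ones. Cd8a, which encodes a chain of the CD8 co-receptor of cytotoxic T cells, ranged from 0 to 30.6 CPM over the peripheral libraries, with the highest values in VAT DT-labelled replicates 5 and 6 (30.6 and 24.3 CPM) and liver DT-labelled replicate 6 (24.4 CPM). In bulk samples such as these, a larger share of expressing cells and more RNA per cell cannot be told apart.

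Most of the 10 genes were low in thymic progenitors and higher in peripheral Treg cells. Gzmb, encoding granzyme B, had a median of 240 CPM over the 32 peripheral libraries, with a lowest value of 10 and a highest of 3018 CPM, and a median of 0.959 CPM over the 18 thymus libraries, with a highest value of 7.00 CPM. Cxcr3 had peripheral and thymic medians of 259 and 3.22 CPM, Ccl5 of 99.3 and 3.08 CPM, and Tbx21 of 36.3 and 2.34 CPM. Nkg7, which encodes a membrane protein of cytotoxic granules, was the member most readily detected in the thymus, with a median of 119 CPM over the peripheral libraries and 22.8 CPM over the thymus libraries. Periphery and thymus also differ in strain, age and sorted phenotype, so these medians were not tested against each other.

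The remaining genes were scarce. Prf1, encoding perforin, had medians of 18 CPM in the periphery and 5.60 CPM in the thymus. Ifng, encoding interferon gamma, reached 29.1 CPM at most and had a count in 28 of 32 peripheral and 8 of 18 thymus libraries. Gzma, encoding granzyme A, reached 36.2 CPM and Il12rb2, encoding a chain of the interleukin 12 receptor, 14.6 CPM. Eomes, which encodes a T-box factor related to T-bet, stayed at or below 6.09 CPM in all 50 libraries. For such genes, a change in a few reads moves the level several-fold.

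Per kilobase of exon, the scale on which genes can be set beside each other, the leading member changed with the site. Cxcr3 led in spleen, with 147 CPM per kb in the DT-labelled and 122 CPM per kb in the PBS-labelled group. Gzmb led in lung with 226 and 186 CPM per kb and in ear skin with 1395 and 703 CPM per kb, in that order of arms. In liver, Ccl5 led the DT-labelled group with 644 CPM per kb, and Gzmb led the PBS-labelled group with 477 CPM per kb. In VAT, Ccl5 led the DT-labelled group with 259 CPM per kb and Nkg7 the PBS-labelled group with 147 CPM per kb. Nkg7 led in each of the 6 thymus groups, with 12.1 to 59.7 CPM per kb. These orders rest on group means and were not tested.

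**Figure D1:**
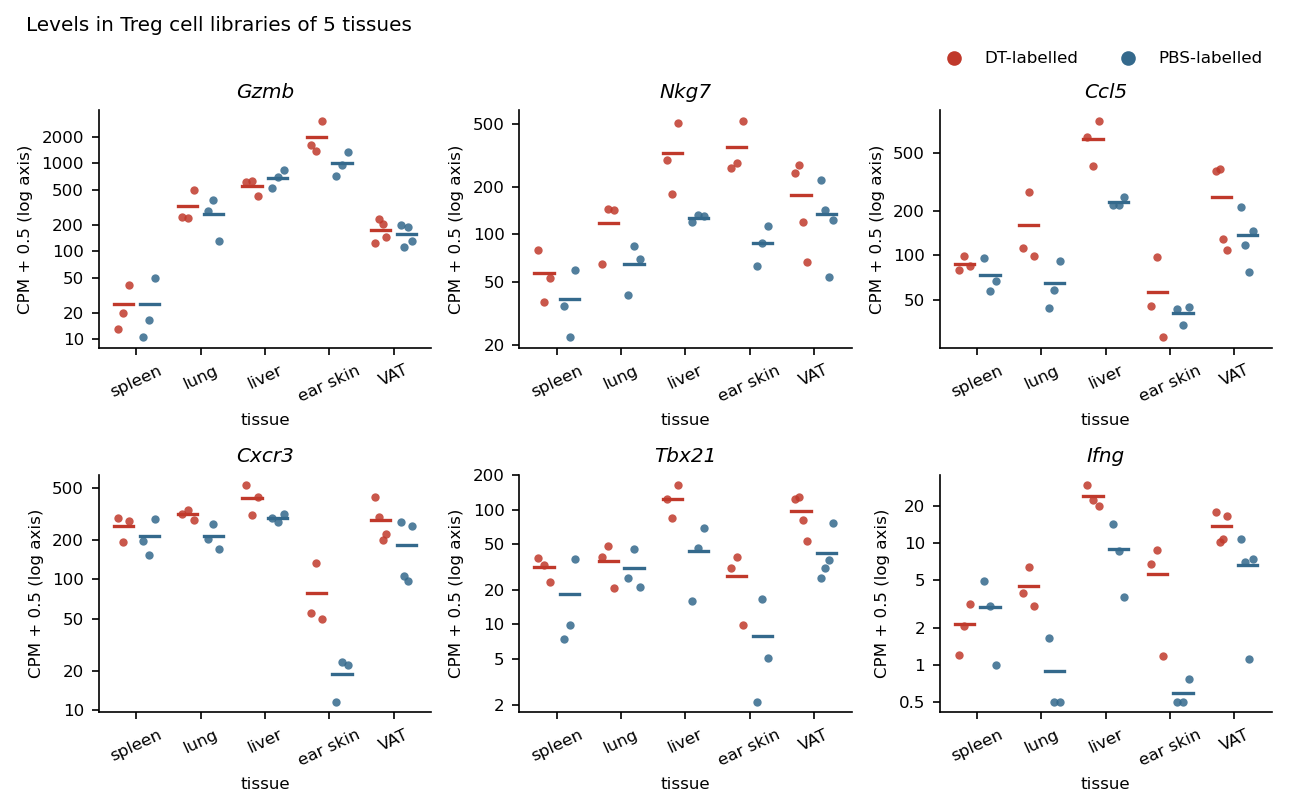
Levels of Gzmb, Nkg7, Ccl5, Cxcr3, Tbx21 and Ifng in the 32 peripheral libraries. The y axes give CPM plus 0.5 on a log scale, each point is a library, bars are group means, and DT-labelled libraries (red) stand left of PBS-labelled ones (blue) in each tissue. Gzmb was lowest in spleen and highest in ear skin, where Cxcr3 was lowest.

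The genes lie on 8 chromosomes of the mm10 build, as placed by GENCODE M21. Gzmb covers chr14:56258838-56262260 on the minus strand, Nkg7 chr7:43437073-43438249 on the plus strand, Cxcr3 chrX:101731535-101734269 on the minus strand, and Tbx21 chr11:97098071-97115331 on the minus strand. Ccl5 covers chr11:83525778-83530518 on the minus strand, Ifng chr10:118441046-118445892 on the plus strand, Gzma chr13:113093825-113100981 on the minus strand, and Prf1 chr10:61297833-61304680 on the plus strand. Il12rb2 covers chr6:67291318-67376188 on the minus strand and Eomes chr9:118478212-118486132 on the plus strand. Ifng overlaps the gene model Gm49751 on its own strand, and Il12rb2 and Eomes overlap Serbp1 and Gm33460 on the other strand. The strand setting of the counting is not given in the sources used here, so counts of these 3 genes are uncertain.

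The promoter windows of Gzmb, Nkg7 and Cxcr3 are shown because these genes carried the clearest differences described next, and because Nkg7 and Cxcr3 were the members that passed the test in ear skin between the arms. Each runs from 250 bases before to 50 bases after the RefSeq start (GRCm38.p6), 5′ to 3′ on the gene's strand, with matches to the T-box letters GGTGTGA or the STAT letters TTCNNNGAA, searched on both strands, in capitals.
Gzmb, chr14:56262285-56262584 (- strand): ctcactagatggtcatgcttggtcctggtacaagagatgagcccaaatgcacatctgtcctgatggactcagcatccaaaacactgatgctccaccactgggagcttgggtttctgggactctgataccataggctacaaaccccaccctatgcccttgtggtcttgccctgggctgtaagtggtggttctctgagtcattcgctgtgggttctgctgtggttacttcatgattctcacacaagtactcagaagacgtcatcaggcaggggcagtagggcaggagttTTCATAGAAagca
Nkg7, chr7:43436888-43437187 (+ strand): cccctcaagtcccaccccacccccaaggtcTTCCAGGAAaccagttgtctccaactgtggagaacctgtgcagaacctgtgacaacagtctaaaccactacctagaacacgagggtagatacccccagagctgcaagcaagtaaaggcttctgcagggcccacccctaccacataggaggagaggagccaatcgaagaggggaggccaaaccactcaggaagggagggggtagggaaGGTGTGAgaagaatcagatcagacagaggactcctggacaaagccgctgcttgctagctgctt
Cxcr3, chrX:101734098-101734397 (- strand): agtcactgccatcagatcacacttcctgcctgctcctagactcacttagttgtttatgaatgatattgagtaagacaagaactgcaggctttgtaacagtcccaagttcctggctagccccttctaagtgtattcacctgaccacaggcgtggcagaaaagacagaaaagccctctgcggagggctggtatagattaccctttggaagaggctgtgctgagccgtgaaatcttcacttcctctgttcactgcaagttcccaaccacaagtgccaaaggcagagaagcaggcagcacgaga
The Nkg7 window holds the T-box letters 13 bases and the STAT letters 220 bases before the start, and the Gzmb window holds the STAT letters at base 38 after it. The Cxcr3 window holds neither. Of the 10 genes, 9 have a promoter entry. Nkg7 is the only one of these 9 whose window holds the T-box letters, and Nkg7, Gzmb, Ifng and Il12rb2 hold the STAT letters. No match overlapped another in these windows. Over all 32851 promoter windows of the same length, 3.98% hold the T-box letters and 8.3% the STAT letters. These matches describe letters and are not evidence of binding.

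Treg cells of each tissue were compared with those of the spleen, within each arm. The 4 comparisons of an arm share their spleen libraries. Gzmb was the single member that was higher in all 4 tissues in both arms, and the size differed widely, with DT-labelled means at 82.2 times the spleen mean in ear skin, 22.8 times in liver, 13.3 times in lung and 7.2 times in VAT. In the PBS-labelled arm the ratios were 40.6, 27.6, 10.8 and 6.29 in that order of tissues. Nkg7 was higher in liver, ear skin and VAT in both arms. Cxcr3 was lower in ear skin in both arms, with mean levels of 0.308 and 0.087 times the spleen mean in the DT-labelled and PBS-labelled arm. A change was called where the adjusted p of edgeR's quasi-likelihood test was below 0.05, after Benjamini-Hochberg adjustment over all genes tested.

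Gzmb stood at 1628, 1362 and 3018 CPM in DT-labelled ear skin, 609, 631 and 428 CPM in DT-labelled liver, 244, 236 and 495 CPM in DT-labelled lung, and 124, 232, 202 and 143 CPM in DT-labelled VAT, against 12.5, 19.4 and 41.2 CPM in DT-labelled spleen. No tissue library overlapped with spleen. The log2 fold changes over spleen were 6.41 ± 0.53 (SE) in ear skin, 4.55 ± 0.49 in liver, 3.73 ± 0.48 in lung and 2.93 ± 0.45 in VAT, with edgeR adjusted p from 8.16e-11 to 2.07e-05. In the PBS-labelled arm Gzmb had 716, 967 and 1346 CPM in ear skin, 526, 702 and 828 CPM in liver, 285, 387 and 131 CPM in lung, and 196, 111, 187 and 131 CPM in VAT, against 10, 15.9 and 48.7 CPM in spleen. Again no tissue library overlapped with spleen, and the log2 fold changes were 5.46 ± 0.51 in ear skin, 4.85 ± 0.50 in liver, 3.51 ± 0.47 in lung and 2.77 ± 0.45 in VAT, with edgeR adjusted p from 6.29e-10 to 2.34e-05. These 8 calls were kept under every alternative tried.

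Nkg7 stood at 296, 181 and 505 CPM in DT-labelled liver, 262, 284 and 522 CPM in DT-labelled ear skin and 246, 276, 119 and 66.1 CPM in DT-labelled VAT, against 79.2, 36.9 and 52.4 CPM in DT-labelled spleen. Liver and ear skin lay above every spleen library, while VAT overlapped with spleen. The log2 fold changes were 2.54 ± 0.47 in liver, 2.68 ± 0.47 in ear skin and 1.70 ± 0.44 in VAT (edgeR adjusted p = 0.000206, 7.05e-05 and 0.0101). The VAT call rested on replicates 5 and 6, the libraries with high Cd8a. Without both replicates, the edgeR adjusted p was 0.464. It was also above 0.05 without VAT replicate 6 (0.0579), spleen replicate 5 (0.0875) or spleen replicate 6 (0.0538).

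Nkg7 in the PBS-labelled arm had 119, 131 and 131 CPM in liver, 62.3, 87.9 and 113 CPM in ear skin and 220, 143, 53.5 and 123 CPM in VAT, against 34.8, 21.8 and 58.6 CPM in spleen. VAT replicate 3 was the one library of these tissues inside the spleen range. The log2 fold changes were 1.80 ± 0.47, 1.3 ± 0.47 and 1.92 ± 0.45 in liver, ear skin and VAT (edgeR adjusted p = 0.00628, 0.0394 and 0.00233). The ear skin call was lost without spleen replicate 1 or 2 or ear skin replicate 2 or 3 (edgeR adjusted p 0.0804 to 0.174), and the VAT call with the compared libraries fitted alone with a replicate block (0.0667). In lung, Nkg7 did not pass the test in the DT-labelled arm (log2 fold change 1.02 ± 0.46, edgeR adjusted p = 0.14) or the PBS-labelled arm (0.83 ± 0.47, 0.253).

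Cxcr3, the receptor for the interferon-induced chemokines CXCL9 and CXCL10, stood at 54.4, 131 and 49.1 CPM in DT-labelled ear skin, against 294, 190 and 277 CPM in DT-labelled spleen. In the PBS-labelled arm it had 11.1, 22.6 and 21.5 CPM in ear skin, against 195, 153 and 286 CPM in spleen. All ear skin libraries lay below all spleen libraries of their arm. The log2 fold changes were -1.66 ± 0.36 in the DT-labelled and -3.42 ± 0.40 in the PBS-labelled arm (edgeR adjusted p = 0.000981 and 5.97e-08), and both were kept under every alternative. In the other 3 tissues Cxcr3 lay at log2 fold changes of 0.22 to 0.73 in the DT-labelled arm and -0.11 to 0.54 in the PBS-labelled arm and did not pass the test.

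The T-bet gene Tbx21 was higher than spleen in 1 of the 8 comparisons. It stood at 122, 84.4 and 162 CPM in DT-labelled liver, against 37.5, 32.7 and 23.1 CPM in DT-labelled spleen, with no overlap (log2 fold change 1.98 ± 0.58, edgeR adjusted p = 0.0185). The call was lost without spleen DT-labelled replicate 5 (0.0628) or 6 (0.0909) or without liver DT-labelled replicate 6 (0.0654), while the log2 fold change ran from 1.74 to 2.18 over the alternatives. In the PBS-labelled arm Tbx21 had log2 fold changes of 0.85 in lung, 1.36 in liver and 1.37 in VAT (edgeR adjusted p = 0.385, 0.12 and 0.105). All 3 were called without spleen PBS-labelled replicate 3, its highest spleen library at 36.8 CPM (0.0331, 0.00686 and 0.00538), and liver also without liver PBS-labelled replicate 1 (0.0488) and with the replicate block (0.0255). In DT-labelled VAT the log2 fold change was 1.67 ± 0.55 (edgeR adjusted p = 0.0522), with 123, 127, 80.5 and 52.8 CPM, all above the spleen range.

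Ccl5, which encodes a chemokine that draws T cells and monocytes, and Ifng were the secreted members. Ccl5 stood at 632, 406 and 817 CPM in DT-labelled liver and 373, 384, 128 and 108 CPM in DT-labelled VAT, against 79.0, 99.4 and 84.0 CPM in DT-labelled spleen. All liver and VAT libraries lay above the spleen range. The log2 fold changes were 2.83 ± 0.45 in liver and 1.56 ± 0.41 in VAT (edgeR adjusted p = 2.16e-05 and 0.0119). Liver kept its call under every alternative, while VAT lost it without replicates 5 and 6 together (0.65) and without VAT replicate 5 (0.0659), VAT replicate 6 (0.0684), spleen replicate 4 (0.0631) or spleen replicate 6 (0.058). Among PBS-labelled libraries Ccl5 passed the test in liver, with 219, 220 and 251 CPM, against 95.1, 56.9 and 66.5 CPM in spleen (log2 fold change 1.73 ± 0.43, edgeR adjusted p = 0.00461), also under every alternative.

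Ifng stood at 29.1, 22.0 and 19.6 CPM in DT-labelled liver and 17.3, 9.67, 10.2 and 16.3 CPM in DT-labelled VAT, against 0.695, 1.6 and 2.66 CPM in DT-labelled spleen. All of these lay above the spleen range. The log2 fold changes were 3.88 ± 0.82 in liver and 3.11 ± 0.78 in VAT (edgeR adjusted p = 0.00102 and 0.00778), and the VAT call was lost without spleen replicate 4 (0.0693) and kept without VAT replicates 5 and 6. In PBS-labelled ear skin Ifng had 0, 0 and 0.268 CPM, a single count in all, against 4.41, 2.55 and 0.494 CPM in PBS-labelled spleen, a ratio of 0.0343 with a 95% counting interval of 0.000847 to 0.202 (edgeR adjusted p = 0.0157). That call was lost without spleen replicate 1 (0.0876), ear skin replicate 1 (0.0667) or ear skin replicate 2 (0.0646).

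The other granule and receptor genes moved from levels near 0. Gzma had 9.19, 3.90 and 13.4 CPM in DT-labelled liver, against 0.347, 0 and 0 CPM in DT-labelled spleen, a ratio of 61.3 with a 95% counting interval of 16.5 to 513 (edgeR adjusted p = 0.0179). In the PBS-labelled arm it had 2.49, 29.7 and 25.8 CPM in liver and 0.941, 36.2, 2.04 and 0.593 CPM in VAT, against 0, 0 and 1.48 CPM in spleen (log2 fold changes 5.44 ± 1.47 and 4.52 ± 1.42, edgeR adjusted p = 0.009 and 0.0266). VAT replicate 2 alone held the high value, and without it the edgeR adjusted p was 0.536. The natural killer cell marker sum was 17.0 CPM in that library and 3.20 to 4.35 CPM in the other VAT libraries of the arm. Other sums were also highest there, with 23.3 CPM for innate-like T cell markers (2.96 to 6.11 CPM in the others). The mast cell and basophil sum was 32.4 CPM (5.45 to 14.0 CPM) and the CD8 sum 40.0 CPM (21.6 to 28.9 CPM). The part of any of these cells in the result was not tested. The liver calls were lost without PBS-labelled spleen replicate 1 (0.0576) and without DT-labelled spleen replicate 5 (0.0881) or 6 (0.0736), and the VAT call also without PBS-labelled spleen replicate 1 (0.132) or 2 (0.106).

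Il12rb2 passed the test in the PBS-labelled arm alone, in liver with 5.89, 6.44 and 7.67 CPM, lung with 2.53, 3.4 and 4.83 CPM and VAT with 1.13, 2.74, 4.89 and 0.988 CPM, against 0.170, 0.588 and 0.247 CPM in spleen. The edgeR adjusted p was 0.00225, 0.0142 and 0.0358 in that order. The spleen group held 5 counts in all, and whether the arms differ in these effects is given with the interactions. The liver call was kept under every alternative. The lung call was lost without spleen replicate 1 (0.0868), without lung replicate 3 (0.0528) or with the compared libraries fitted alone with a replicate block (0.0909). The VAT call was lost without a filter on low counts (0.0555) and without spleen replicate 1 (0.168) or 3 (0.0946) or VAT replicate 2 (0.0669) or 3 (0.142).

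Prf1 and Eomes passed the test in none of the 8 tissue comparisons with edgeR or DESeq2. Prf1 ranged over 5.79 to 32.2 CPM in DT-labelled and 7.12 to 31.4 CPM in PBS-labelled peripheral libraries, and its log2 fold changes over spleen lay between -0.87 and 0.53. Gzmb stood at 6.29 to 82.2 times its spleen mean in the same libraries.

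**Figure D2:**
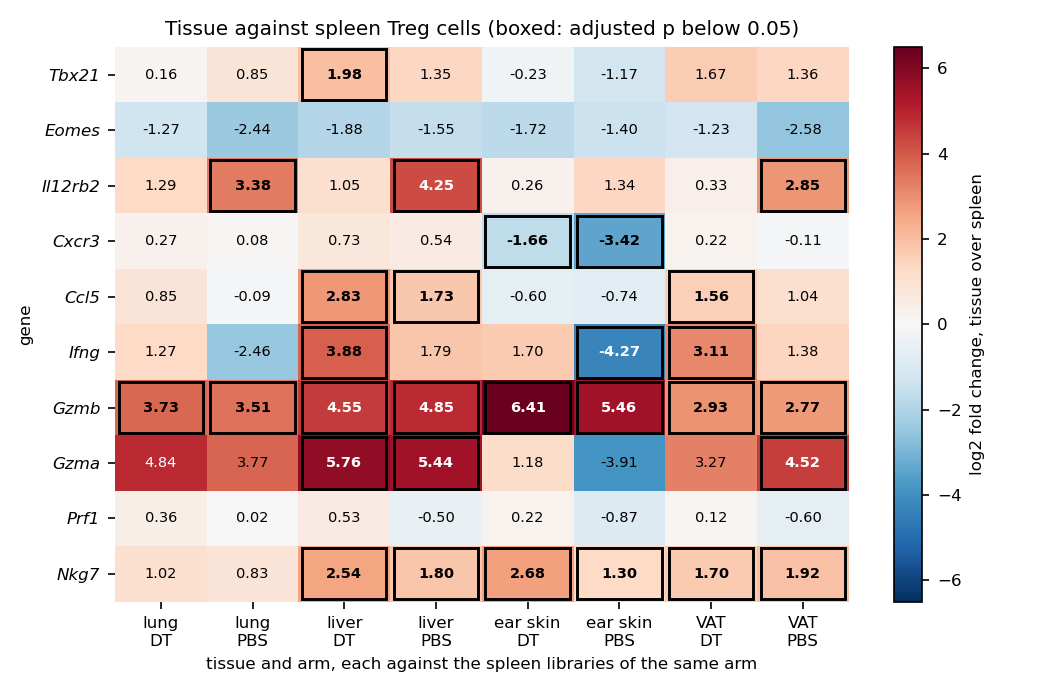
Log2 fold changes of the 10 genes in each tissue over the spleen libraries of the same arm. Each cell gives the value, with red above and blue below 0 and a box where the edgeR adjusted p was below 0.05. Gzmb is boxed in all 8 columns, Prf1 and Eomes in none, and Cxcr3 is blue and boxed in ear skin.

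Counted over the 10 genes, liver had the most changes. Because the genes were chosen with earlier results of these data known, the counts describe them and do not test the list. In the DT-labelled arm 6 of 10 were higher in liver, 4 in VAT, 1 in lung and 2 in ear skin, where 1 was lower. Of all 17731 genes tested, 13.3%, 8.85%, 14.6% and 22.1% changed in these tissues, with 8.18%, 5.7%, 8.48% and 10.5% higher and 5.08%, 3.15%, 6.15% and 11.6% lower. Among PBS-labelled libraries 5 of the 10 genes were higher in liver, 4 in VAT, 2 in lung and 2 in ear skin, where 2 were lower. There 17%, 14.9%, 15.9% and 23.7% of all genes changed, with 9.15%, 8.67%, 8.14% and 11.1% higher and 7.85%, 6.27%, 7.79% and 12.5% lower. The median log2 fold change of the 10 genes was 2.26 in DT-labelled and 1.76 in PBS-labelled liver, beside 0.02 and -0.02 over all genes, and 0.24 and -1.02 in ear skin, beside 0.13 and 0.14. Leaving out 1 library at a time moved the counts over 2 to 5 in DT-labelled and 2 to 4 in PBS-labelled VAT, over 1 to 5 in PBS-labelled lung and over 2 to 4 in PBS-labelled ear skin. The VAT minimum was reached without DT-labelled spleen replicate 4 or 6, DT-labelled VAT replicate 6 or PBS-labelled spleen replicate 1, the lung extremes without spleen replicate 1 or lung replicate 3 and without spleen replicate 3, and the ear skin minimum without spleen replicate 1. Without DT-labelled VAT replicates 5 and 6 together, 2 genes remained called in VAT.

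The other genes of the same pathways moved in tissue groups of their own. These lists were also chosen with earlier results of these data known. Of 52 listed genes, 43 passed the filter on low counts. In the DT-labelled arm 22 were higher and 2 lower than spleen in liver, and 15 and 3 in VAT. The counts were 19 and 7 in lung and 18 and 9 in ear skin. Among PBS-labelled libraries they were 17 and 2, 16 and 6, 17 and 5, and 17 and 12. The shares of all genes are given above in the same order of tissues. In that order, 6, 5, 3 and 5 of 9 chemokine and receptor genes were higher in the DT-labelled arm. Of 9 transcription genes 6, 5, 4 and 6 were higher there, and 7 of each list passed the filter. The other lists were more mixed. Of 23 granule and killing genes, 18 passed the filter, with 6, 2, 6 and 3 higher and 1, 1, 4 and 4 lower. Their median log2 fold changes were 0.194, -0.007, 0.071 and -0.065. Of 11 receptor and signalling genes, 4, 3, 6 and 4 were higher and 1, 2, 3 and 4 lower. The homing receptor gene Cxcr6 was highest in VAT, at 402 ± 197 CPM in the DT-labelled arm (mean ± SD, n = 4), against 12.3 ± 2.92 CPM in spleen (n = 3), and at 663 ± 273 CPM in the PBS-labelled arm, against 9.99 ± 3.12 CPM in spleen (log2 fold changes 5.07 and 6.17, edgeR adjusted p = 4.12e-10 and 1.01e-11). Ifngr1, encoding the ligand-binding chain of the interferon gamma receptor, stood at 2864 ± 427 CPM in DT-labelled liver, against 458 ± 6.73 CPM in spleen (log2 fold change 2.65, edgeR adjusted p = 4.93e-11).

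Among transcription factors, Bhlhe40, a factor of cytokine-producing T cells, and Id2, an inhibitor of E proteins, were higher than spleen in DT-labelled liver, at 863 ± 177 and 403 ± 101 CPM, against 42.0 ± 23.3 and 51.8 ± 7.92 CPM in spleen (log2 fold changes 4.37 and 2.96, edgeR adjusted p = 1.32e-10 and 3.42e-10). Stat4, which carries the signal of interleukin 12, was lower in ear skin, at 21.1 ± 7.90 CPM in the DT-labelled arm, against 127 ± 14.6 CPM in spleen (log2 fold change -2.56, edgeR adjusted p = 2e-09). Serpinb9, the inhibitor of granzyme B, was also lower in ear skin, at 6.48 ± 1.2 CPM in the DT-labelled arm, against 53.9 ± 4.29 CPM in spleen (log2 fold change -3.04, edgeR adjusted p = 1.04e-09). In the same libraries Gzmb had its highest levels.

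The DT-labelled libraries were then compared with the PBS-labelled ones in each tissue, 8 to 9 weeks after the toxin. In ear skin, Cxcr3 and Nkg7 were higher in the DT-labelled group, 2 of the 6 genes that passed the filter there, where 0.411% of 12653 genes changed, 0.277% higher and 0.134% lower. In spleen, lung, liver and VAT 8, 9, 9 and 7 of the 10 genes passed the filter, and none of them passed the test with edgeR, where 0%, 0%, 0% and 0.124% of all genes changed, in VAT 0.0497% higher and 0.0746% lower. At an unadjusted p below 0.05 there were 0, 4, 5 and 1 such members in that order, and DESeq2 called 0, 0, 2 and 0. Over all genes, 0 of 12453, 12046 and 11962 passed in spleen, lung and liver with edgeR (358, 412 and 525 at an unadjusted p below 0.05) and 0, 2 and 16 with DESeq2. In VAT 955 of 12067 genes had an unadjusted p below 0.05 with edgeR, and DESeq2 called 95 of 12059.

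In ear skin Cxcr3 stood at 54.4, 131 and 49.1 CPM in DT-labelled libraries, against 11.1, 22.6 and 21.5 CPM in PBS-labelled libraries. Every DT-labelled library lay above every PBS-labelled one. The log2 fold change was 2.11 ± 0.36 (edgeR adjusted p = 0.00863), and the call was lost without DT-labelled replicate 5, the highest library (0.0794). Even so, the DT-labelled level remained under that of spleen, as given above.

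Nkg7 in ear skin stood at 262, 284 and 522 CPM in DT-labelled libraries, against 62.3, 87.9 and 113 CPM in PBS-labelled libraries, again without overlap (log2 fold change 2.02 ± 0.24, edgeR adjusted p = 0.000532). The call was kept without each library in turn and was lost in one fit of all 32 peripheral libraries (0.0672). Gzmb, at 1628, 1362 and 3018 CPM in DT-labelled and 716, 967 and 1346 CPM in PBS-labelled libraries, did not overlap either and missed the threshold (log2 fold change 0.99 ± 0.24, edgeR adjusted p = 0.0723). It was called without PBS-labelled replicate 3 (0.0439) or DT-labelled replicate 5 (0.0486). Tbx21 had 30.5, 38.4 and 9.33 CPM in DT-labelled and 1.63, 16.1 and 4.56 CPM in PBS-labelled ear skin (log2 fold change 1.84 ± 0.60, edgeR adjusted p = 0.252) and was called without PBS-labelled replicate 2 (0.0341).

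Ifng in ear skin fell below the filter on low counts and was not tested. It had 6.26, 8.29 and 0.691 CPM in the DT-labelled libraries, against 0, 0 and 0.268 CPM in the PBS-labelled ones, so 48 counts against 1, a ratio of 56.3 with a 95% counting interval of 9.63 to 2270. The interval covers counting error only. Of the 52 pathway genes, Ccl4, encoding another inflammatory chemokine, was the single one called in ear skin, at 13.4 ± 9.06 CPM in the DT-labelled and 0.103 ± 0.179 CPM in the PBS-labelled group (n = 3 each, edgeR adjusted p = 0.00195).

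Summed over 8 natural killer cell and group 1 innate lymphoid cell markers, ear skin libraries held 13.7, 15.5 and 20.0 CPM in the DT-labelled and 9.49, 13.3 and 7.77 CPM in the PBS-labelled group, so the groups did not overlap. Every one of these 8 markers had a count in the DT-labelled group, and Klra4 was at 0 in the PBS-labelled group. Single markers differed in direction, with Klrb1c at means of 1.53 CPM in the DT-labelled and 1.87 CPM in the PBS-labelled group. Ncr1 had means of 2.82 and 1.83 CPM in that order, and its ranges overlapped. Cd8a stood at 0.276 to 1.57 CPM in DT-labelled and at 0 to 0.271 CPM in PBS-labelled ear skin, near 0 in both. The sum of 8 macrophage and monocyte markers was 22.3, 24.3 and 19.0 CPM in the DT-labelled group, against 17.6, 16.7 and 12.1 CPM in the PBS-labelled group. That of 5 plasmacytoid dendritic cell markers was 72.6 to 96.4 CPM in the DT-labelled group, against 59.1 to 64.0 CPM in the PBS-labelled group, and the groups overlapped in neither sum. The plasmacytoid marker Spib was at 0 in the DT-labelled group. The part of any of these cells in the ear skin differences was not tested.

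In liver, the same direction was seen without a call. Ccl5 stood at 632, 406 and 817 CPM in DT-labelled libraries, against 219, 220 and 251 CPM in PBS-labelled libraries (log2 fold change 1.44 ± 0.23, edgeR adjusted p = 0.469). Nkg7 had 296, 181 and 505 CPM, against 119, 131 and 131 CPM (1.38 ± 0.31, 0.684), and Tbx21 122, 84.4 and 162 CPM, against 15.4, 45.5 and 69.3 CPM (1.5 ± 0.43, 0.927). The arms did not overlap in liver for these 3 genes, for Ifng, which was also higher in the DT-labelled libraries, or for Il12rb2, which was lower there. The share of all genes without overlap between the arms is not given, so these separations cannot be set against it. No gene of 11962 passed the adjustment. DESeq2 called Ccl5 and Nkg7 (adjusted p = 1.14e-05 and 0.00474), a fit with no filter on low counts called Ccl5, Nkg7, Tbx21 and Ifng (2.85e-10, 1.46e-08, 2.39e-08 and 0.0269), and edgeR called Ccl5 without DT-labelled replicate 5 (0.0114). Cd8a moved the same way, with 8.82, 8.29 and 24.4 CPM in DT-labelled and 2.72, 4.37 and 4.54 CPM in PBS-labelled liver. The summed level of Cd8a and Cd8b1, the CD8 marker list, was 41.4 to 60.8 CPM in DT-labelled and 20.2 to 33.5 CPM in PBS-labelled liver, and the part of CD8 T cells in these values was not tested.

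In VAT the arms overlapped for all 10 genes. Tbx21 had 123, 127, 80.5 and 52.8 CPM in the DT-labelled libraries, against 24.8, 30.3, 35.8 and 75.7 CPM in the PBS-labelled ones (log2 fold change 1.22 ± 0.36, edgeR adjusted p = 0.341). It was called without PBS-labelled replicate 4 (0.0477), the highest library of that arm. Ccl5 was high in DT-labelled replicates 5 and 6 (373 and 384 CPM), whose Cd8a was 30.6 and 24.3 CPM, and at 128 and 108 CPM in replicates 7 and 8, whose Cd8a was 2.2 and 0.845 CPM. The sums of Cd8a and Cd8b1 were 76.0, 90.0, 16.8 and 26.8 CPM in DT-labelled VAT, against 21.6 to 40.0 CPM in PBS-labelled VAT. Their part in the Ccl5 values was not tested. The log2 fold change of Ccl5 was 0.87 ± 0.41 with all libraries (edgeR adjusted p = 0.639) and -0.18 without replicates 5 and 6 (0.928).

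**Figure D3:**
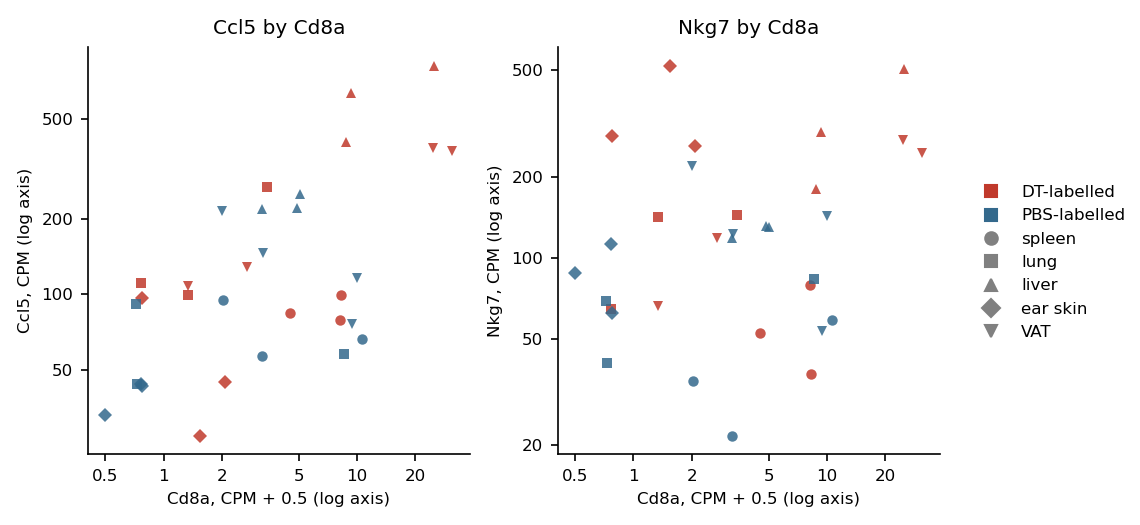
Ccl5 and Nkg7 levels by library against Cd8a in the 32 peripheral libraries, all in CPM on log axes (0.5 added to Cd8a), with DT-labelled libraries in red, PBS-labelled ones in blue and a symbol per tissue. VAT DT-labelled replicates 5 and 6 and liver DT-labelled replicate 6 have the 3 highest Cd8a levels, and DT-labelled ear skin has high Nkg7 with Cd8a between 0.276 and 1.57 CPM.

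In lung, Cxcr3, Ccl5 and Ifng did not overlap between the arms. The share of all genes without overlap is not given here either, and no gene of 12046 passed the adjustment. Cxcr3 stood at 314, 339 and 284 CPM in DT-labelled libraries, against 201, 266 and 170 CPM in PBS-labelled libraries (log2 fold change 0.48 ± 0.20, edgeR adjusted p = 1). Ccl5 had 111, 268 and 99.2 CPM, against 43.7, 57.7 and 91.3 CPM (1.25 ± 0.36, 1). In spleen the arms overlapped for every member except Prf1, which stood at 9.20, 18.8 and 15.4 CPM in DT-labelled libraries, against 31.4, 19.0 and 23.7 CPM in PBS-labelled libraries (log2 fold change -0.70 ± 0.34, edgeR adjusted p = 0.933).

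Cxcr3, Tbx21, Nkg7 and Ccl5 each had a higher DT-labelled than PBS-labelled mean in 5 of 5 tissues with all libraries. Without VAT DT-labelled replicates 5 and 6, the log2 fold changes in VAT were -0.49 for Nkg7 and -0.18 for Ccl5. The ratios of means ran from 1.2 in spleen to 4.26 in ear skin for Cxcr3, 1.17 in lung to 3.51 in ear skin for Tbx21, 1.31 in VAT to 4.06 in ear skin for Nkg7, and 1.2 in spleen to 2.69 in liver for Ccl5. The mean was higher in the DT-labelled arm in 4 of 5 tissues for Ifng and in 3 of 5 for Gzmb, Prf1, Il12rb2 and Eomes. Gzma was higher in 1 of 5, and its ratio lay between 0.148 and 0.801 in the other 4. The genes share libraries, and in 7 of the 10 peripheral groups Cxcr3 and Tbx21 had their highest value in the same library, so these directions are not independent of each other.

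The DT effects of lung, liver, ear skin and VAT were each tested against that of spleen as an interaction. None of the 10 genes passed with edgeR in any of the 4 tests, in which 0%, 0%, 0.0451% and 0.0169% of 17731 genes changed (in ear skin 0.0282% higher and 0.0169% lower, in VAT all lower). At an unadjusted p below 0.05 there were 1, 1, 3 and 1 members, beside 801, 940, 1127 and 1160 of 17731 genes. DESeq2 called 0, 0, 1 and 0 members, beside 1, 1, 34 and 11 of 17722 genes. The 1 member was Ifng in ear skin (DESeq2 adjusted p = 0.0378). For Cxcr3, ear skin exceeded spleen by 1.76 on the log2 scale (edgeR adjusted p = 0.443) and for Nkg7 by 1.37 (0.777). The call of these genes in ear skin and its absence in other tissues is therefore not shown to be a difference between tissues. The same interaction gives the difference between the arms in each tissue-to-spleen change, which for Il12rb2 was -3.19 in liver, -2.09 in lung and -2.52 in VAT on the log2 scale (edgeR adjusted p = 0.915, 0.966 and 0.757).

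**Figure D4:**
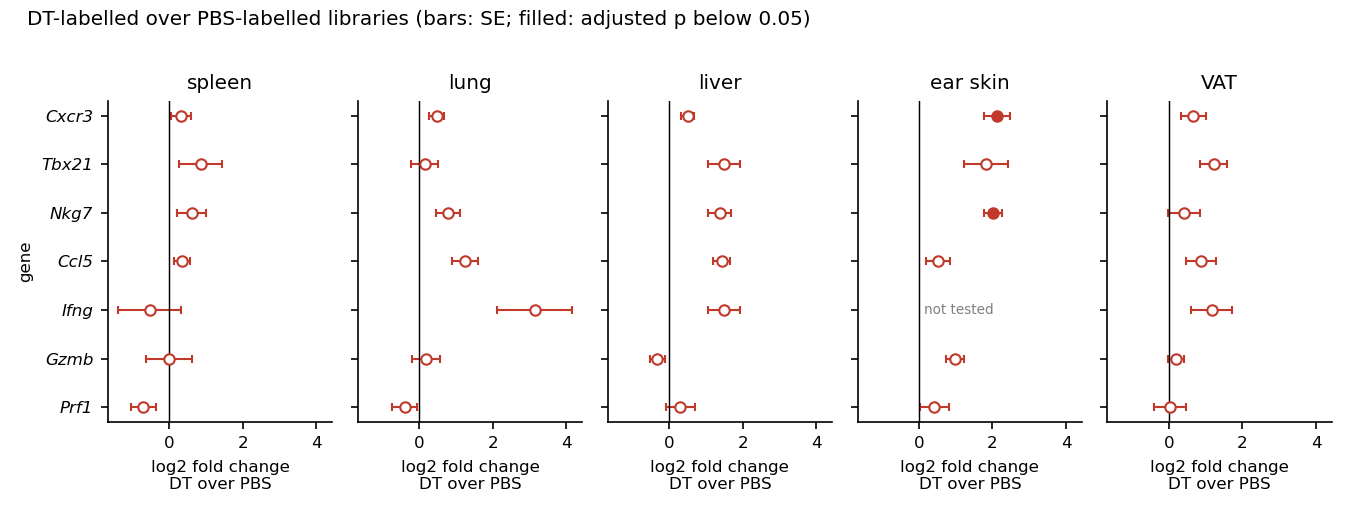
Log2 fold changes of 7 genes in DT-labelled over PBS-labelled libraries of each tissue, with SE bars and filled points where the edgeR adjusted p was below 0.05. Filled points appear for Cxcr3 and Nkg7 in ear skin, and the points of Cxcr3, Tbx21, Nkg7 and Ccl5 lie above 0 in each of the 5 tissues with all libraries, those of Nkg7 and Ccl5 in VAT below 0 without DT-labelled replicates 5 and 6.

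In thymic P1 progenitors, Cxcr3 was higher at D49 than at either earlier age. It stood at 4.35, 0.876 and 1.56 CPM at D5, 6.70, 0.988 and 0 CPM at D12 and 26.3, 33.4 and 55.5 CPM at D49. All D49 libraries lay above all earlier ones. The log2 fold change was 3.88 ± 0.88 at D49 over D12 and 4.11 ± 0.89 at D49 over D5 (edgeR adjusted p = 0.00457 and 0.00353), kept under every alternative. Both comparisons share the D49 libraries. The summed level of the 8 natural killer cell and group 1 innate lymphoid cell markers in P1 was 0.35 to 1.7 CPM at D5, 6.75 to 11.4 CPM at D12 and 10.9 to 22.9 CPM at D49, with replicate 3 highest at D49 in both this sum and Cxcr3. Ncr1, Klre1 and Klri2 were at 0 in all D5 libraries, Klra4 at D12, and Klra4 and Klra8 at D49. The markers did not move together. Klrb1c had means of 0.189, 1.21 and 12.6 CPM at D5, D12 and D49, and made up most of the D49 sum. Ncr1 had means of 0, 2.49 and 0.237 CPM, so it was lower at D49 than at D12. The part of such cells in the Cxcr3 values was not tested.

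Ccl5 in P1 had 0.378, 0 and 0 CPM at D5, 1.09, 9.88 and 0.899 CPM at D12 and 4.35, 5.32 and 8.57 CPM at D49. It was above the D5 range in every later library, by a ratio of 30.8 at D12 (95% counting interval 8.1 to 262) and 54.9 at D49 (14.8 to 460), over a D5 group that held 2 counts in all. The edgeR adjusted p was 0.0101 and 0.00292, and the first was lost without D12 replicate 2, its highest library (0.114). Ccl5 remained far under its peripheral levels at each age.

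Tbx21 in P1 had 1.51, 4.38 and 2.35 CPM at D5, 0, 1.73 and 0.675 CPM at D12 and 14.8, 2.34 and 13.7 CPM at D49, higher at D49 than at D12 (log2 fold change 3.74 ± 1.14, edgeR adjusted p = 0.0237) and not called against D5 (1.89 ± 0.98, 0.258). The first call was lost without D12 replicate 1 or 3 or D49 replicate 1 or 3 (0.0668 to 0.0755). Nkg7 in P1 had 25.7, 21 and 23.8 CPM at D5, 70.4, 50.6 and 42.7 CPM at D12 and 45.2, 35.6 and 36.4 CPM at D49. It was higher at D12 than at D5 without overlap (log2 fold change 1.18 ± 0.39, edgeR adjusted p = 0.0418), and that call was lost when any 1 of the 6 libraries was left out (0.0521 to 0.131).

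Of the 10 genes, 9 passed the filter in the thymus. In P1, 2 were higher at D12 than D5, 2 at D49 than D12 and 2 at D49 than D5, where 18.3%, 23.7% and 10.6% of 14696 genes changed, with 10.1%, 10.2% and 4.06% higher and 8.16%, 13.5% and 6.5% lower. Leaving out 1 library gave 0 to 1, 1 to 3 and 2 genes. In P2 none passed with edgeR between any of the ages, where 5.16%, 15% and 25.8% of genes changed for D12 over D5, D49 over D12 and D49 over D5, with 1.81%, 9.02% and 14.7% higher and 3.35%, 5.97% and 11.1% lower. There 0, 2 and 2 members had an unadjusted p below 0.05, beside 2408, 4522 and 5480 of 14696 genes. DESeq2 called 0, 1 and 0 members, beside 1118, 2577 and 3968 of 14694 genes. The 1 was Gzmb at D49 over D12 (DESeq2 adjusted p = 0.0279), with 0 counts in all D12 libraries.

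Cxcr3 in P2 had 1.99, 1.34 and 4.77 CPM at D5, 0.436, 3.68 and 2.39 CPM at D12 and 2.76, 4.50 and 22.9 CPM at D49, where replicate 3 alone stood out. Replicates 2 and 3 at D49 are the libraries with high macrophage and monocyte marker sums, and replicate 1 had 22.9 CPM of these markers. Without replicates 2 and 3 together the log2 fold change of Cxcr3 at D49 over D5 was -0.01, and it was 1.94 ± 0.87 with them (edgeR adjusted p = 0.108). Without replicate 1, edgeR called Cxcr3, Tbx21, Nkg7 and Ccl5 at D49 over D5 and Cxcr3 and Gzmb at D49 over D12. The age effects of D49 over D5 in P2 and in P1 were not shown to differ for any member. With edgeR 0 of 9 passed, beside 0.374% of all genes (0.157% higher and 0.218% lower). With DESeq2 0 of 9 passed, beside 307 of 14694 genes. At an unadjusted p below 0.05 there were 2 members with edgeR, beside 2098 of 14696 genes. Without D49 P2 replicate 1, edgeR called 1 member. For Cxcr3, P2 minus P1 was -2.17 on the log2 scale (edgeR adjusted p = 0.43).

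**Figure D5:**
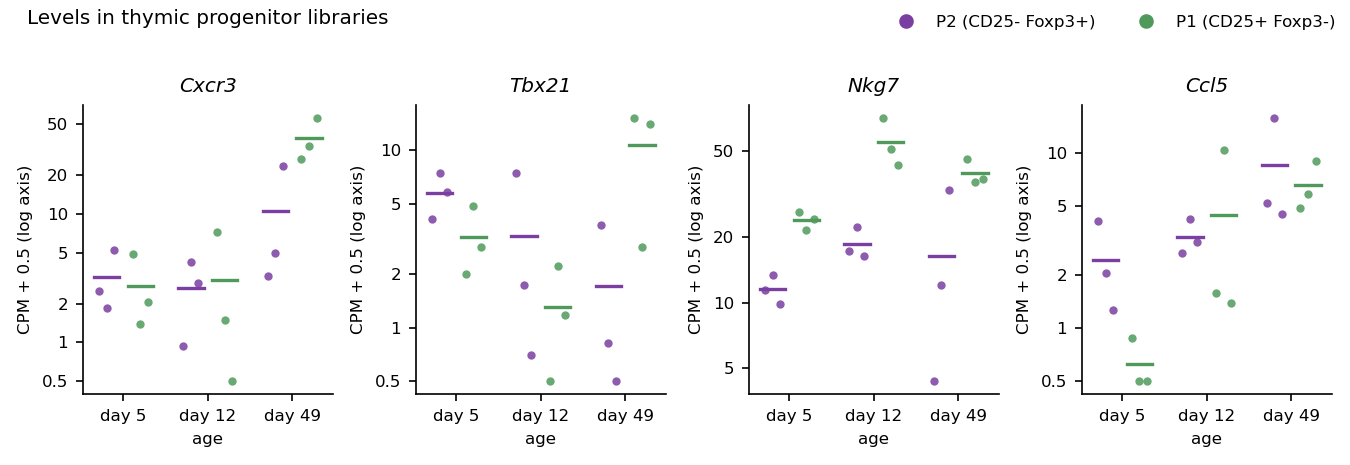
Levels of Cxcr3, Tbx21, Nkg7 and Ccl5 in the 18 thymic progenitor libraries by age. The y axes give CPM plus 0.5 on a log scale, points are libraries and bars are group means, with P2 (purple) left of P1 (green) at each age. In P1, Cxcr3 is at 26.3 to 55.5 CPM at day 49 and at or under 6.70 CPM at both earlier ages.

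Between the populations, Nkg7 was lower in P2 than in P1 at D12 and D49. At D12 it stood at 16.8, 21.9 and 15.9 CPM in P2, against 70.4, 50.6 and 42.7 CPM in P1, without overlap (log2 fold change -1.55 ± 0.40, edgeR adjusted p = 0.00469, kept under every alternative). At D49 it stood at 3.87, 11.6 and 32.4 CPM in P2, against 45.2, 35.6 and 36.4 CPM in P1 (log2 fold change -1.21 ± 0.41, edgeR adjusted p = 0.031). That call was lost without P1 replicate 1 (0.082) or 2 (0.0543), without P2 replicate 1 (0.0528) or 2 (0.0946), and with the compared libraries fitted alone (0.22). Without P2 replicates 2 and 3 together, those with high macrophage and monocyte marker sums, the log2 fold change of Nkg7 was -3.34. Cxcr3 at D49 had no overlap between P2 and P1 and was not called (log2 fold change -1.85 ± 0.78, edgeR adjusted p = 0.0802), but was called without P2 replicate 3 (-3.4, 0.00536) and without replicates 2 and 3 together (-3.8, 0.019). At D5 Nkg7 had 10.9, 12.9 and 9.36 CPM in P2, against 25.7, 21 and 23.8 CPM in P1, without overlap and without a call (log2 fold change -1.06 ± 0.42, edgeR adjusted p = 0.0964).

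Cd8a was also lower in P2, at 0 to 5.88 CPM over the 9 P2 libraries, against 8.70 to 22.8 CPM over the 9 P1 libraries. Cd8b1, the other CD8 chain gene, did not differ at D5 (log2 fold change -0.096, edgeR adjusted p = 0.819). It was lower in P2 at D12 and D49 (-1.07 and -0.81, 0.00019 and 0.00369). The part of CD8-expressing cells in the Nkg7 difference was not tested. At D5, Ccl5 was higher in P2, at 3.58, 1.56 and 0.764 CPM, against 0.378, 0 and 0 CPM in P1, a ratio of 17.1 with a 95% counting interval of 4.32 to 148 (edgeR adjusted p = 0.0344). It was lost without P1 replicate 2 (0.129) or 3 (0.134) or P2 replicate 1 (0.17) or 2 (0.0523).

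At D49, Tbx21 was lower in P2, with 3.31, 0.321 and 0 CPM, against 14.8, 2.34 and 13.7 CPM in P1 (log2 fold change -3.06 ± 1.1, edgeR adjusted p = 0.0413). Il12rb2 was lower too, with 2.49, 1.61 and 0.220 CPM, against 14.6, 2.34 and 6.76 CPM (-2.45 ± 0.88, 0.0415). Both pairs of groups overlapped, through P1 replicate 2 and P2 replicate 1. Both calls were lost without P2 replicates 2 and 3 together (0.431 and 0.375), without P1 replicate 1 or 3 or P2 replicate 2 or 3 (0.0644 to 0.203), and with the compared libraries fitted alone (0.111 and 0.12). Gzma was higher in P2, at 0.552, 0.642 and 8.37 CPM, against 0, 0.639 and 0 CPM in P1, a ratio of 18.9 with a 95% counting interval of 6.05 to 95.5 (edgeR adjusted p = 0.0467). Most of its P2 counts came from replicate 3, which also had the highest natural killer cell marker sum of P2 (22.9 CPM), and without it the adjusted p was 0.537, and the call was also lost without P1 replicate 1 (0.13) or 3 (0.137).

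In P2 against P1, 1, 1 and 4 of the 10 genes passed the test at D5, D12 and D49, where 15.2%, 41.4% and 29.5% of 14696 genes changed, with 6.79%, 17.6% and 16.6% higher and 8.4%, 23.8% and 12.9% lower. Without 1 library the counts ran over 0 to 1, 1 to 2 and 1 to 3, with 2 at D12 without P1 replicate 1 or 3, and the D49 minimum reached without P1 replicate 1 or 3 or P2 replicate 2. Of the 37 tested pathway genes, 14, 22 and 11 were called at D5, D12 and D49, with 9, 14 and 5 higher and 5, 8 and 6 lower. The genes named next were picked for their small adjusted p. Ifngr1 was higher in P2 at each age, for example at 239 ± 14.6 CPM in P2 and 84.2 ± 15.1 CPM in P1 at D12 (n = 3 each, log2 fold change 1.53, edgeR adjusted p = 2.04e-08). Xcl1, encoding a chemokine for cross-presenting dendritic cells, was lower in P2 at each age, for example at 1.47 ± 1.23 CPM in P2 and 24.4 ± 4.34 CPM in P1 at D49 (log2 fold change -3.97, edgeR adjusted p = 0.000115). Runx3, a factor of cytotoxic and type 1 T cells, was lower in P2 at D12 and D49 (log2 fold changes -1.08 and -1.77, edgeR adjusted p = 0.00778 and 0.000258).

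In P1, the receptor gene Cxcr6 was higher at D49 than at D12, at 47.2 ± 7.39 CPM, against 5.95 ± 2.24 CPM (n = 3 each, log2 fold change 3.03, edgeR adjusted p = 0.00289). Unlike Cxcr3, it was not called at D49 over D5, where 0 of the 6 tested genes of its list were called. The interleukin 18 receptor gene Il18r1 rose to 10.8 ± 2.43 CPM at D49, against 4.72 ± 0.458 CPM at D12 (1.25, 0.0104). Of the 52 pathway genes, of which 37 passed the filter, 14 rose and 0 fell at D49 over D12 in P1, where 10.2% of all genes were higher and 13.5% lower. The median log2 fold change of the 37 was 0.41, beside -0.05 over all genes tested. At D49 over D5 in P1, 6 rose and 1 fell, and at D12 over D5, 6 rose and 4 fell.

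Across the 16 group means, genes with the most similar level patterns were found by Pearson's r of log2 CPM over the 9584 genes whose group means averaged 5 CPM or more. For Gzmb these were Havcr2, Baz1a and Icam1 (r = 0.987, 0.985 and 0.984), and for Cxcr3 Il2rb, Arhgap26 and Serpina3g (0.962, 0.958 and 0.956). For Nkg7 they were Bcl2a1b, Ehd1 and Ndfip1 (0.923, 0.922 and 0.908), of which Bcl2a1b is uncertain, as reads can fall between it and its close paralogs. For Ccl5 they were Fcho2, Dhrs7 and Sdcbp2 (0.961, 0.96 and 0.96), for Tbx21 Spryd7, Slc1a5 and Rbm27 (0.935, 0.931 and 0.927), and for Prf1 Cdc42se2 and Stk24 (0.962 and 0.958). Among the members, Cxcr3 and Ccl5 had r = 0.934, Cxcr3 and Tbx21 0.915, and Nkg7 and Gzmb 0.876, while Cxcr3 and Eomes had -0.171. All points share the gap between thymus and periphery, and the values are a description over 16 groups.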

How the data were processed

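RNA-seq was measured in 50 libraries of sorted mouse Treg cells and thymic Treg progenitors. The values are raw read counts per gene, deposited by the authors as 1 table of 55011 gene symbols. Per the submitters' processing notes, STAR 2.7.3a was the aligner, featureCounts the counter and mm10 the build. Groups follow the labels. Levels are CPM scaled by TMM factors over all libraries. Tests used edgeR 4.0.16 (quasi-likelihood F test, TMM, filterByExpr with a minimum count of 10) with Benjamini-Hochberg adjustment over all genes tested at 0.05. Thymus comparisons came from 1 fit of 18 libraries, tissue comparisons and interactions from 1 fit of 32, and DT against PBS from a fit per tissue. Scripts were tested on simulated data. The total count per library, 2521078 to 6981037, sets the counting precision; intervals cover counting error only.

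Alternatives were DESeq2 1.42.0, RLE size factors, no filter on low counts, the compared libraries alone with and without a replicate block, and leaving out each library. The members and lists were chosen with earlier results of these data known. All 10 members were described in every comparison. Pathway genes are named from the 4 called genes with the smallest adjusted p of each list and comparison, and the 3 nearest patterns per member used log2 of CPM plus 0.5. The labels do not say whether same-numbered libraries came from the same mouse, and the main fits treated them as unpaired. Positions are from GENCODE M21, of whose symbols 96.2% of the table's 55011 matched, and promoter sequences are RefSeq's (GRCm38.p6). Of the named genes, 1 pathway gene and 1 gene of similar pattern are not reported here.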

Additional observations from a re-analysis of the deposited data

Results flagged for a closer look

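Groups of 4 libraries were checked for a library far from the others, 20 sets of gene and group in all, and chance gives such a gap in about 1 in 20 groups. In PBS-labelled VAT, Gzma stood at 36.18 CPM in replicate 2, against 0.593 to 2.04 CPM in the other 3 libraries. In the same replicate Eomes stood at 1.683 CPM, with 0 CPM in the others. In DT-labelled VAT, Il12rb2 stood at 4.434 CPM in replicate 8, against 1.1 to 1.5 CPM in the other 3 libraries. The causes were not tested.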

How the results depend on the processing

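Of 43 calls of a member in a comparison, 21 were kept in every alternative run and 22 were lost in at least 1. No call changed direction, and 53 uncalled pairs were called in some alternative. The cause was not tested. Counts of called members moved as follows, with counts over all genes beside them except for the fits that leave libraries out. With the compared libraries alone: P1 D12 over D5, 1 (also 1 with the replicate block); P1 D49 over D5, 4; P2 against P1 at D5, 3 (3 with the block), and at D49, 0 (1 with the block); VAT PBS-labelled over spleen, 2 (1 with the block); lung DT-labelled over spleen, 4 (4 with the block); lung PBS-labelled with the block, 1. Over all genes the thymus counts were 3396 (3012 with the block) of 12596, 2601 of 12085, 4066 (4076) of 11870 and 1210 (960) of 11708. Those of VAT and lung were 1626 (1321) of 12692, 3298 (3241) of 12304 and, for PBS-labelled lung with the block, 885 of 12370. With no filter: P2 D49 over D12 and over D5, 2 each; P2 against P1 at D5, 2, and at D12, 3; lung over spleen, 4 DT-labelled and 5 PBS-labelled; DT against PBS, 1 in lung, 4 in liver, 5 in ear skin and 4 in VAT; the DT effect of ear skin minus spleen, 3; the age effect, 2. Over all genes these were 3636, 4586, 1894 and 6259 of 46017 in thymus and 2166 and 2508 of 49822 in lung over spleen. For DT against PBS they were 10 of 42006, 47 of 41262, 165 of 45423 and 347 of 41124. The DT effect had 68 of 49822 and the age effect 908 of 46017. DESeq2 gave 1 for P2 D49 over D12, 3 for P2 against P1 at D12, 2 for lung DT-labelled over spleen, 2 for liver DT against PBS and 1 for the ear skin DT effect. In that order it called 2577 and 6160 of 14694 genes, 3054 of 17722, 16 of 11962 and 34 of 17722. RLE factors gave 2 for P2 against P1 at D12 and 2 for lung DT-labelled, beside 6101 of 14696 and 2657 of 17731 genes. One fit of all 32 peripheral libraries gave 1 for ear skin DT against PBS, beside 25 of 17731 genes.

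Chosen after seeing the data, leaving out D49 P2 replicates 2 and 3 gave 1 for P2 D49 over D12, 1 over D5, 2 against P1 and 1 for the age effect, with no value for Gzmb at D49 over D12, where both groups were then at 0. Leaving out VAT DT-labelled replicates 5 and 6 gave 2 over spleen. Leaving out each library in turn gave ranges of 0 to 1 for P1 D12 over D5, 1 to 3 for P1 D49 over D12, 0 to 2 for P2 D49 over D12, 0 to 4 for P2 D49 over D5, 0 to 1, 1 to 2 and 1 to 3 for P2 against P1 at D5, D12 and D49, 1 to 5 for lung, 2 to 4 for ear skin and 2 to 4 for VAT PBS-labelled over spleen, 2 to 5 for VAT DT-labelled, and 0 to 1 for DT against PBS in liver, for DT against PBS in VAT and for the age effect.

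Among the pairs called in some alternative, uncalled log2 fold changes that changed sign were Nkg7 at D49 over D12 in P2, -0.09 with all libraries and -1.23 to 0.35 without 1 library, above 0 without D12 P2 replicate 2 (0.06), D49 P2 replicate 1 (0.35) or D49 P2 replicate 2 (0.08); Nkg7 at D49 over D5 in P2, -1.52 without replicates 2 and 3 and -0.54 (without replicate 3) to 1.05 without 1 library; and Cxcr3 there, -0.01 without replicates 2 and 3. The others were Cxcr3 in DT-labelled VAT over spleen, -0.22 without replicates 5 and 6 and -0.077 (without replicate 5) to 0.36 without 1 library; Gzma there, -2.47 without both; Ccl5 in DT against PBS in VAT, -0.18 without both; and Nkg7 in the age effect, -1.30 to 0.28 without 1 library, above 0 without D49 P2 replicate 1 (0.28) or 2 (0.006). Pairs called in no alternative are not listed, apart from Nkg7 in DT against PBS in VAT, -0.49 without replicates 5 and 6. RLE factors moved the median of all genes by 0.153 (log2) in DT-labelled ear skin over spleen.

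Over 50 same-numbered pairs, correlations of deviations from group means ran from -0.189 to 0.154. In 0 of 17 comparisons was every pair over 0.1. Deviations within groups this small are tied to each other, so these values cannot tell whether same-numbered libraries came from the same mouse. For DT against PBS, no paired analysis was possible because the arms share no replicate numbers. Genes under a few CPM are limited by depth.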
